A study of Mus musculus with 14 samples.

Results

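Granule and lysozyme genes encode the proteins that phagocytes store and release to kill microbes. Myeloperoxidase (Mpo) and the serine proteases neutrophil elastase (Elane), proteinase 3 (Prtn3) and cathepsin G (Ctsg) fill the primary granules of neutrophils, which are loaded early in granulocyte development. Lactoferrin (Ltf) and the cathelicidin antimicrobial peptide (Camp) belong to the secondary granules, which are formed later. Lysozyme is made from a pair of neighbouring mouse genes, Lyz2, the myeloid form expressed in macrophages and neutrophils, and Lyz1, best known from Paneth cells of the gut, and Chil3 encodes the chitinase-like protein Ym1 of activated macrophages and neutrophils. The ETS factor PU.1 (encoded by Spi1) and the basic leucine zipper factors of the C/EBP family are the best known activators of such myeloid genes, while GFI1B is a zinc finger repressor of the blood lineage.

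The 9 genes were grouped by function, and every transcription factor (TF) binding peak that overlapped a gene's RefSeq span on GRCm38 (mm10), extended by 20 kb on each side, was taken, with a peak shared by neighbours counted once. In this way 82 of the 158488 peaks in 14 peak lists were assigned to 7 of the 9 genes, and the other 2 had none. The background was all 21774 protein-coding genes on the assembled chromosomes. Each list came from chromatin immunoprecipitation followed by sequencing (ChIP-seq) with one antibody in one population sorted from differentiating mouse embryonic stem cells of strain 129 that carry a Brachyury-GFP reporter, and some lists pool technical sequencing runs. The populations were mesoderm (MES, Bry.GFP+, FLK1-; C/EBPβ and ELK4), hemangioblast (HB, Bry.GFP+, FLK1+; C/EBPβ and GATA2), hemogenic endothelium (HE, Tie2+/Ckit+/CD41-; C/EBPβ), hematopoietic progenitors (HP, CD41+; C/EBPβ, GATA1, GATA2, GFI1B, RUNX1 and PU.1) and macrophages (MAC, CD11b+; C/EBPβ, RUNX1 and PU.1), the last grown from CD41+ cells in culture. None of the populations is a neutrophil, and the lists say where a factor was bound, not whether a gene was expressed.

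There was 1 list for each factor at each stage, so no difference could be set against replicate error and no test was run. The lists ranged from 72 peaks for RUNX1 in MAC to 82866 for PU.1 in MAC, and the calling threshold was chosen separately for each, so a list with no peak at a gene does not show that the factor was absent. Each count is therefore printed with the percentage of all coding genes that the same window rule calls in the same list. Depth, scores and peak heights are not part of the lists analysed here. MAC PU.1 and MAC C/EBPβ peaks within 20 kb were also counted at 6 sorting marker genes. Itgam (CD11b, the MAC marker) had 19 and 10, Kdr (FLK1) 8 and 11, Kit 7 and 3, Itga2b (CD41) 5 and 2, Tek (Tie2) 4 and 0, and T (Brachyury) 2 and 1. The medians over all coding genes were 4 and 2. Kdr thus had more MAC C/EBPβ peaks than the MAC marker. HP PU.1 had 3 peaks at Itgam, 3 at Kdr and 2 at Itga2b, the HP marker. These counts do not separate the stages and so cannot check the labels.

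The windows fell into 7 loci with 362.763 kb in all, because Lyz1 and Lyz2 (chromosome 10) and Prtn3 and Elane (also chromosome 10) are neighbours. Most peaks came from the PU.1 and C/EBPβ lists of MAC, which are also the longest lists. PU.1 in MAC gave 45 of the 82 peaks and C/EBPβ in MAC gave 22. The HP lists gave 13 peaks, 10 of them PU.1, 2 GFI1B and 1 C/EBPβ. MES gave 2 peaks, 1 of C/EBPβ and 1 of ELK4. No peak came from HB or HE, or from the GATA1, GATA2 and RUNX1 lists of any stage. Per 1000 peaks of a list, the number at these genes was 0.543 for PU.1 and 0.397 for C/EBPβ in MAC, and 0.914 for PU.1 in HP. It was 1.91 for ELK4 and 0.850 for C/EBPβ in MES, and 0.991 for GFI1B and 0.368 for C/EBPβ in HP, each from 1 or 2 peaks. Per Mb of window there were 124 MAC PU.1 peaks, against 46.4 in the windows of all coding genes. For MAC C/EBPβ the densities were 60.6 against 30.3, and for HP PU.1 27.6 against 6.09.

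**Figure D1:**
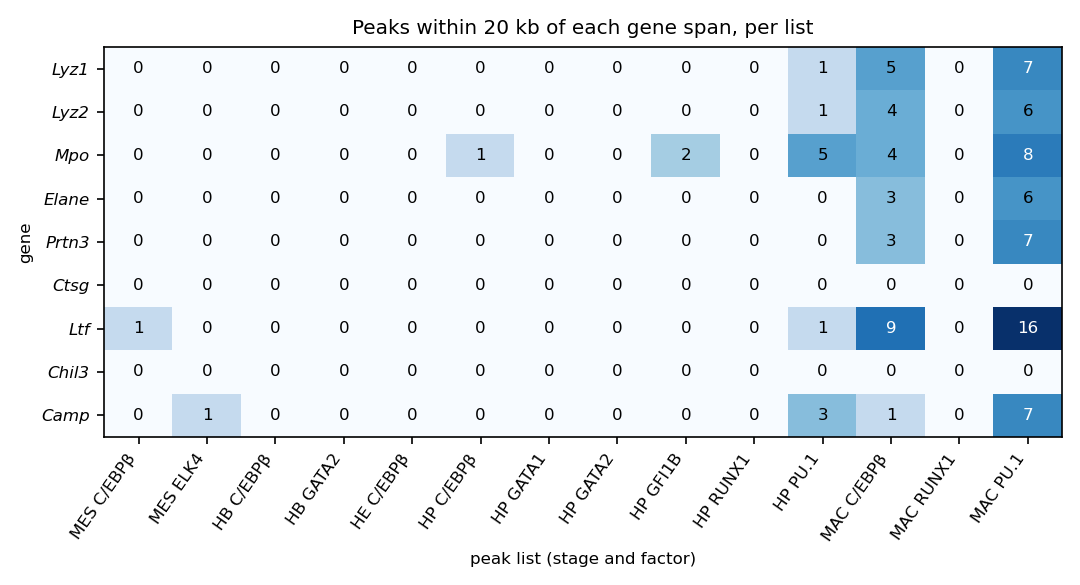
Number of peaks (cell values) within 20 kb of each gene span, with genes in rows and the 14 peak lists, by stage and factor, in columns; darker cells hold more peaks. PU.1 and C/EBPβ in MAC fill 7 of the 9 rows, Mpo alone has peaks in 3 HP lists, and the Ctsg and Chil3 rows are 0 throughout.

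By gene, 7 of the 9 windows held a MAC PU.1 peak, at a background of 79.1% of coding genes, and the same 7 held a MAC C/EBPβ peak, at a background of 73.8%. Both factors together were found at 71.4% of coding genes. These shares lie near the background, so the presence of a MAC peak says little about the family. For PU.1 in HP, 5 of 9 genes (Lyz1, Lyz2, Mpo, Ltf and Camp) had a peak, against 38.2% of coding genes. By the nearest coding start it was 3 of 9 (24.1%), because Lyz1 and Lyz2 share 1 peak and the Ltf peak is nearest to Ccrl2. C/EBPβ in HP was found at 1 gene, Mpo (background 14.8%), as was GFI1B in HP (11.8%). C/EBPβ in MES was found at Ltf only (6.47%) and ELK4 in MES at Camp only (4.66%).

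The remaining lists held no peak at any of the 9 genes, and their backgrounds were low. They were 7.79% for RUNX1 in HP, 4.24% for C/EBPβ in HB, 3.36% for GATA2 and 1.75% for GATA1 in HP, 0.684% for C/EBPβ in HE, 0.478% for RUNX1 in MAC and 0.363% for GATA2 in HB. With 9 genes, a count of 0 lies close to such backgrounds.

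The number of peaks per gene was compared in the same way. Of the 9 genes, 7 had at least 5 MAC PU.1 peaks, as did 43.9% of coding genes, and 6 had at least 3 MAC C/EBPβ peaks, as did 46.4%. These are not separate counts, because Lyz1 and Lyz2, and Elane and Prtn3, share nearly all their peaks. By the nearest coding start, Lyz2 had 2 MAC PU.1 peaks, Elane 3 and Prtn3 2. With only the upper 50% of the lines of each list, an alternative chosen after the data had been seen, 2 of 9 genes (Ltf and Mpo) had at least 5 MAC PU.1 peaks, against 17.2%, and 1 (Ltf) had at least 3 MAC C/EBPβ peaks, against 22.5%. The median over the 9 genes was 7 MAC PU.1 peaks and 3 MAC C/EBPβ peaks, compared with 4 and 2 over all coding genes. These medians count a shared peak for each neighbour. The median window was 44732 bp for the 9 genes and 57219 bp for all coding genes, and the part of window length was not tested.

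**Figure D2:**
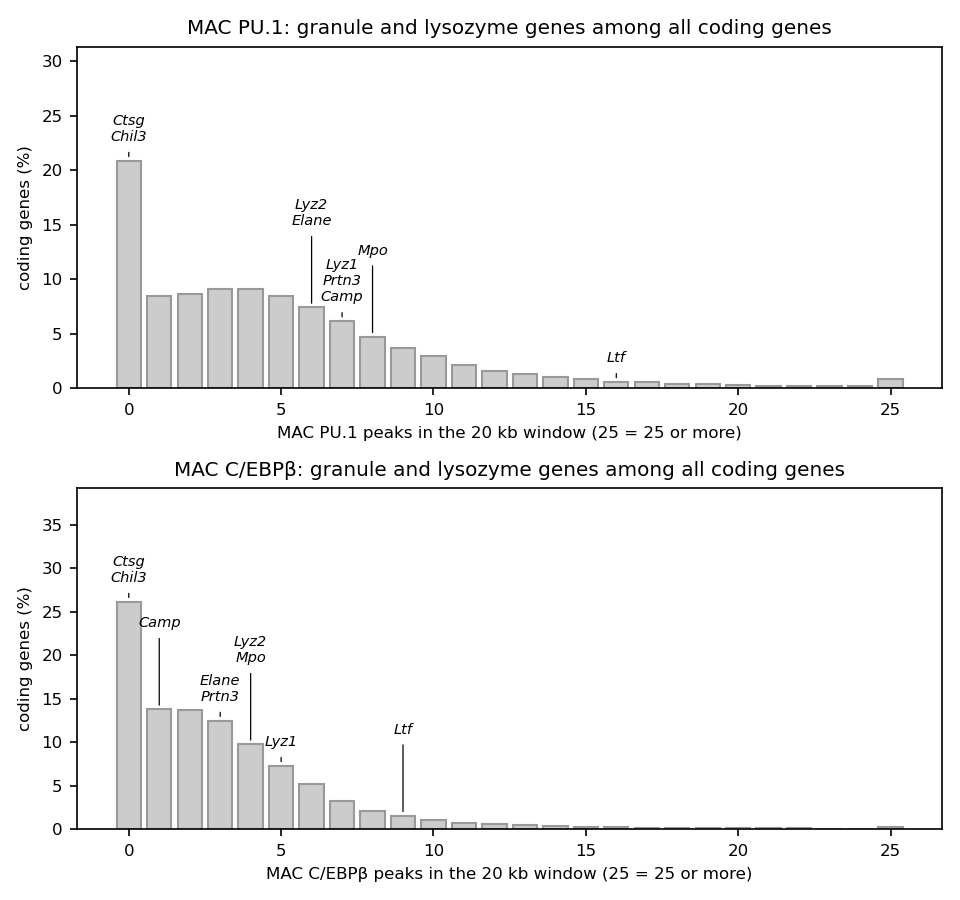
Percentage of all 21774 coding genes (bars) with each number of MAC PU.1 peaks (upper panel) or MAC C/EBPβ peaks (lower panel) in the 20 kb window, with the positions of the 9 genes marked by name. Ltf lies in the upper tail with 16 and 9 peaks, Camp has 7 PU.1 peaks but 1 C/EBPβ peak, and Ctsg and Chil3 are at 0.

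The lysozyme genes lie head to tail on the minus strand, Lyz1 (GeneID 17110) at chr10:117287795-117292868 and Lyz2 (GeneID 17105) at chr10:117277541-117282272. Their spans were 83.3% identical and the 250 bases before their starts 79.4% identical, with the last 50 bases before the start the same in both. Lyz1 had 7 MAC PU.1, 5 MAC C/EBPβ and 1 HP PU.1 peak in its window, and Lyz2 had 6, 4 and 1. In the same order, 71.9%, 75.8% and 61.8% of coding genes had fewer than Lyz1. For Lyz2 these shares were 64.5%, 66.1% and 61.8%. All 11 peaks of the Lyz2 window were among the 13 of the Lyz1 window.

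The start of Lyz2 had a peak and that of Lyz1 had none. A MAC C/EBPβ peak was centred at −14 bp of the Lyz2 start and had no PU.1 peak over it in either stage. It stood at 74.3% of the lines of its list and was lost when only the upper 50% were kept, so the difference between the starts rests on this 1 peak. No peak of any of the 14 lists lay over the 250 bases before the Lyz1 start, and its nearest upstream peaks were the MAC pair at −5667 bp (C/EBPβ) and −5703 bp (PU.1). Because reads with several positions were discarded, the share of 50-base words that occur once in the assembled chromosomes was counted within 500 bp of each start. It was 96.1% at Lyz2 and 91.4% at Lyz1. Both 250-base promoters are shown, since the bound and the unbound member of this pair are so alike. They are read 5′ to 3′ on the strand of the gene from the RefSeq promoter table for GRCm38, and capitals mark a consensus.
Lyz2, chr10:117282273-117282522, minus strand: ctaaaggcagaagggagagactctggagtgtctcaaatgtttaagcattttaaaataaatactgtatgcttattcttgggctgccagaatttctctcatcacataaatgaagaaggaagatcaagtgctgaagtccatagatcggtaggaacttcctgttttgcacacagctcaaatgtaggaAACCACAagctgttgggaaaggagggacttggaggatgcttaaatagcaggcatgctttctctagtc
Lyz1, chr10:117292869-117293118, minus strand: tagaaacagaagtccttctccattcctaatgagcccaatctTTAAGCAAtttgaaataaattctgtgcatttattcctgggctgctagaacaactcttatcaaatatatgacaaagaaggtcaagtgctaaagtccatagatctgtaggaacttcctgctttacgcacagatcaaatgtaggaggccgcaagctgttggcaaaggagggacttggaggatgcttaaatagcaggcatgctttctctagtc

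The consensus letters searched on both strands, here and in every sequence that follows, were GAGGAAGT for PU.1, CCGGAAGT for ELK4, TTGCNNAA for C/EBP, AGATAA for GATA, AATCNNNGC for GFI1B, TGTGGTT for RUNX and TGANTCA for AP-1. The PU.1 and ELK4 letters share GGAAGT. The Lyz2 promoter held 1 match, AACCACA for RUNX at −67 to −61, letters found in 4.46% of 27025 RefSeq promoters. It held no TTGCNNAA, although C/EBPβ was bound there. The Lyz1 promoter held 1 C/EBP match, TTAAGCAA at −209 to −202 (9.55% of promoters), without a peak. These matches are descriptions of letters, not of binding sites.

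PU.1 at the lysozyme locus was found in HP at 1 site, centred −8942 bp from the Lyz1 start and −19538 bp from that of Lyz2. The site was present again in MAC, where the PU.1 centre was at −8947 bp and a C/EBPβ peak lay at −9117 bp. The central 200 bases of the HP peak, chosen for print after its values were seen, carry GAGGAAGT at −8952 to −8945 and AGATAA at −8976 to −8971.
Lyz1 upstream site, chr10:117301711-117301910, minus strand: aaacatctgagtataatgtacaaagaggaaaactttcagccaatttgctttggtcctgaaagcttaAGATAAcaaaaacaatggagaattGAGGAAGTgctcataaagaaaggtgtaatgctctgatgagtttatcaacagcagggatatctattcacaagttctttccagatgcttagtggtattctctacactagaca

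In MAC, C/EBPβ and PU.1 also shared a site between the genes, at −2867 and −2904 bp of Lyz2, and a site further upstream of Lyz1 (−11782 and −11725 bp), besides the pair at −5667 and −5703 bp. PU.1 without C/EBPβ was centred at −7739 bp and 4367 bp of Lyz1, the latter in a non-coding part of an exon, and at 13160 bp of Lyz2, beyond its 3′ end.

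Mpo (GeneID 17523, chr11:87793784-87804412, plus strand) had the richest binding in HP. Its window held 5 PU.1, 2 GFI1B and 1 C/EBPβ peak in HP, and 8 PU.1 and 4 C/EBPβ peaks in MAC. Of all coding genes, 98.9% had fewer HP PU.1 peaks and 98.5% had fewer HP GFI1B peaks. Peaks of C/EBPβ, GFI1B and PU.1 in HP were found together in the window of 2.25% of coding genes, and Mpo was the only one of the 9. Its MAC PU.1 and MAC C/EBPβ counts were less extreme, with 78.1% and 66.1% of coding genes below them.

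The 20 peaks at Mpo fell into 8 merged sites, each with 1 to 4 peaks. The upstream site near −3521 bp was the only one of 47 merged sites at the 9 genes that was bound in 4 lists. C/EBPβ was centred there at −3608 bp in HP and −3571 bp in MAC, GFI1B at −3521 bp in HP and PU.1 at −3452 bp in MAC. No HP PU.1 peak lay at this site. The HP C/EBPβ and GFI1B peaks stood at 89.1% and 52.0% of the lines of their lists, and both were lost when only the upper 50% were kept. At the start, GFI1B was centred at −312 bp and PU.1 at −231 bp in HP, and PU.1 at −234 bp in MAC, without C/EBPβ. Both sites lie in an intron of the annotated non-coding gene Gm34064. A GFI1B peak in HP within 500 bp of the start was found for 2.32% of coding genes, and a PU.1 peak in HP for 4.64%, and among the 9 genes Mpo alone had either.

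The other HP PU.1 peaks of this locus were centred at −16625 and −14234 bp, in coding exons of Tspoap1, at 6404 bp in an intron of Mpo and at 15048 bp in an intron of Lpo, the lactoperoxidase gene next to it. All 5 recurred in MAC. MAC added PU.1 at 2546 bp, in a coding exon of Mpo, paired with C/EBPβ at 2441 bp, and PU.1 alone at 17874 bp, in Lpo. Because Lpo lies within 20 kb, peaks at its end of the window cannot be assigned to Mpo rather than Lpo by position.

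The promoter of Mpo carries the PU.1 letters at −224 to −217, under the PU.1 peaks of both stages, and no other match. The central 200 bases of the HP C/EBPβ peak carry TTTTGCAA, the C/EBP letters, at −3537 to −3530. Neither of the 2 GFI1B peaks held AATCNNNGC, which 44.9% of the HP GFI1B list held. Both sequences are shown because they hold the only start site bound by PU.1 in HP and the only site bound in 4 lists.
Mpo promoter, chr11:87793534-87793783, plus strand: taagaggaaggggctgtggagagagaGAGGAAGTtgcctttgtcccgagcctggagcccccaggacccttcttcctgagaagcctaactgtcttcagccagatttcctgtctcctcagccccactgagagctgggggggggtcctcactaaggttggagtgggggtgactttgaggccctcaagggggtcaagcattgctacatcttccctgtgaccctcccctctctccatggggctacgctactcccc
Mpo upstream site, chr11:87790077-87790276, plus strand: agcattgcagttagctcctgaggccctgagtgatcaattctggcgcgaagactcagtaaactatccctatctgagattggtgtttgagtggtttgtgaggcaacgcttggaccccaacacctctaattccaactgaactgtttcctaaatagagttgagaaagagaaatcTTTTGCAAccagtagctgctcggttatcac

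Prtn3 (GeneID 19152, chr10:79879667-79883174) and Elane (GeneID 50701, chr10:79886312-79888216) are neighbouring serine protease genes on the plus strand. Within 20 kb they were bound in MAC only. The Prtn3 window held 7 PU.1 and 3 C/EBPβ peaks, and the Elane window 6 and 3. Fewer peaks were found at 71.9% (PU.1) and 53.6% (C/EBPβ) of coding genes for Prtn3, and at 64.5% and 53.6% for Elane. All 9 peaks of the Elane window were among the 10 of the Prtn3 window. None of the 6 HP lists had a peak there, whereas 49.8% of coding genes had a peak in at least 1 HP list. This holds at the 20 kb limit only. With 50 kb on each side, both genes had a PU.1 peak and a C/EBPβ peak in HP (53.0% and 23.4% of coding genes).

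At the Elane start, C/EBPβ was centred at −53 bp and PU.1 at −85 bp, and both peaks overlapped. At the Prtn3 start, PU.1 was centred at −93 bp without C/EBPβ, which instead was found upstream at −1715 and −2333 bp, each time with PU.1 (−1778 and −2355 bp). PU.1 alone lay at −1244 and −2906 bp of Elane and at −14035 bp of Prtn3, in a coding exon of Plppr3. The 2 promoters share the PU.1 letters at nearly the same distance from the start, at −85 to −78 in Elane and −95 to −88 in Prtn3, although they were only 45.4% identical when aligned. GAGGAAGT was found in 2.44% of the 27025 promoters, and 3 of the 9 genes had it, Mpo, Elane and Prtn3, each beneath a MAC PU.1 peak.
Elane promoter, chr10:79886062-79886311, plus strand: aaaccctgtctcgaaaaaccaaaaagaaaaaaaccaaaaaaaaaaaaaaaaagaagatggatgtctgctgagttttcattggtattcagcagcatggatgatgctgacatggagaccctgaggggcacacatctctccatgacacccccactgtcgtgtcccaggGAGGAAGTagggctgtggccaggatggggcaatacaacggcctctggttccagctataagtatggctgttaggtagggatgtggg
Prtn3 promoter, chr10:79879417-79879666, plus strand: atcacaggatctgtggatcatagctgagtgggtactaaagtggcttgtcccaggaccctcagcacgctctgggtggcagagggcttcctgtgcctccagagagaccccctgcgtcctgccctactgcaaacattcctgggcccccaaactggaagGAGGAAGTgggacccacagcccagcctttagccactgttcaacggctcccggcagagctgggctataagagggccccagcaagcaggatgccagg

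Ctsg (GeneID 13035, chr14:56099885-56102574, minus strand), the serine protease of the same granules in the mast cell protease and granzyme cluster, had no peak in any of the 14 lists. Chil3 (GeneID 12655, chr3:106147554-106167564, minus strand) likewise had none. No peak in any list was found for 18.2% of coding genes. The nearest peak beyond the window was MAC PU.1 for both genes, 44119 bp from the Ctsg span and 53992 bp from that of Chil3. Within the window, 85.6% of 50-base words at Ctsg and 79.2% at Chil3 occurred once in the assembled chromosomes, compared with 86.9% to 98.4% at the 7 bound genes. Within 500 bp of the start these shares were 100% at Ctsg and 90.5% at Chil3. The part of repeated sequence in the empty windows was not tested. The Ctsg promoter held none of the 7 consensus sequences and the Chil3 promoter held 1, TTATCT for GATA at −122 to −117.

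Ltf (GeneID 17002, chr9:111019292-111042766, plus strand) had the highest counts in MAC, with 16 PU.1 and 9 C/EBPβ peaks. Of all coding genes, 96.2% had fewer MAC PU.1 peaks and 93.7% fewer MAC C/EBPβ peaks. Its window was also the longest of the 9 (63475 bp) and includes the neighbouring gene Ccrl2, a chemokine receptor-like gene. By the nearest coding start, 7 of the 16 PU.1 peaks and 4 of the 9 C/EBPβ peaks belonged to Ltf, and 8 and 4 to Ccrl2. The Ltf count by the window rule thus combines both genes.

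The Ltf start was the only start of the 9 bound in MES. C/EBPβ was centred at −52 bp in MES and at −73 bp in MAC, where PU.1 was centred at −266 bp. A MES C/EBPβ peak within 500 bp of the start was found for 0.978% of coding genes. This peak stood at 93.7% of the lines of its list and was lost when only the upper 50% were kept. C/EBPβ in HB, HE and HP had no peak in the Ltf window. Binding in MES and MAC but in none of these 3 lists was found for 1.71% of coding genes. These lists held 715, 132 and 2716 peaks, compared with 1177 in MES and 55471 in MAC. The promoter carries TTGGGCAA, a match to the C/EBP letters on the other strand, at −75 to −68, near both C/EBPβ centres, and AGATAA at −32 to −27.
Ltf promoter, chr9:111019042-111019291, plus strand: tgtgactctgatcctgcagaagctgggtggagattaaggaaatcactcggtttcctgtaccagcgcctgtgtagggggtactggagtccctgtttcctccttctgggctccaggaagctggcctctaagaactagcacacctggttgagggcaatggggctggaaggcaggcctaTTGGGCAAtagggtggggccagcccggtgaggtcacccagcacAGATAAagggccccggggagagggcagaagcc

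Within the Ltf gene, MAC PU.1 was found in introns at 4093, 14661, 16529 and 18452 bp, and C/EBPβ accompanied it at 14641 and 18510 bp. Upstream, both factors met at −5322 bp (C/EBPβ) and −5294 bp (PU.1), and PU.1 alone lay at −9375 bp. The only HP peak of the locus was PU.1 at 27091 bp, beyond the 3′ end of Ltf and 11135 bp from the Ccrl2 start. MAC PU.1 (27102 bp) and C/EBPβ (27083 bp) shared it. Its central 200 bases, chosen for print after its values were seen, hold the PU.1 letters at 2 positions, 27059 to 27066 and 27079 to 27086.
Ltf downstream site, chr9:111046284-111046483, plus strand: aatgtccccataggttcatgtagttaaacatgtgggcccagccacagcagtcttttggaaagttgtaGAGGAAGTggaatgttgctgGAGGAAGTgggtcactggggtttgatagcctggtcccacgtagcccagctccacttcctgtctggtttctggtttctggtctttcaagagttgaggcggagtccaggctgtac

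Camp (GeneID 12796, chr9:109847377-109849456, minus strand) showed more PU.1 than C/EBPβ. It had 7 MAC PU.1 peaks and 3 HP PU.1 peaks, with 71.9% and 94.1% of coding genes below these counts. Camp had only 1 MAC C/EBPβ peak, with 26.2% of coding genes below it. That C/EBPβ peak was at the start, centred at −171 bp, together with PU.1 at −204 bp. The HP PU.1 peaks were centred at 1836 bp, in an intron of Camp, at 4323 bp, past its 3′ end, and at 16454 bp, and all 3 recurred in MAC. The last lay 280 bp from the start of the neighbouring gene Nme6, and the single ELK4 peak in MES, at 16696 bp of Camp, lay 38 bp from that start, so it is nearer to Nme6 than to Camp. The 250 bases before the Camp start held none of the 7 consensus sequences. The central 200 bases of its C/EBPβ peak hold TTGAGCAA, the C/EBP letters on the other strand, at −266 to −259, and are shown as the only C/EBPβ site of this gene.
Camp start site, chr9:109849528-109849727, minus strand: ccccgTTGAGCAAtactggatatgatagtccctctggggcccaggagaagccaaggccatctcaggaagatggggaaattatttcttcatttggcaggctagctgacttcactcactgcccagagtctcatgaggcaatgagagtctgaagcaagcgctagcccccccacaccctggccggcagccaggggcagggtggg

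**Figure D3:**
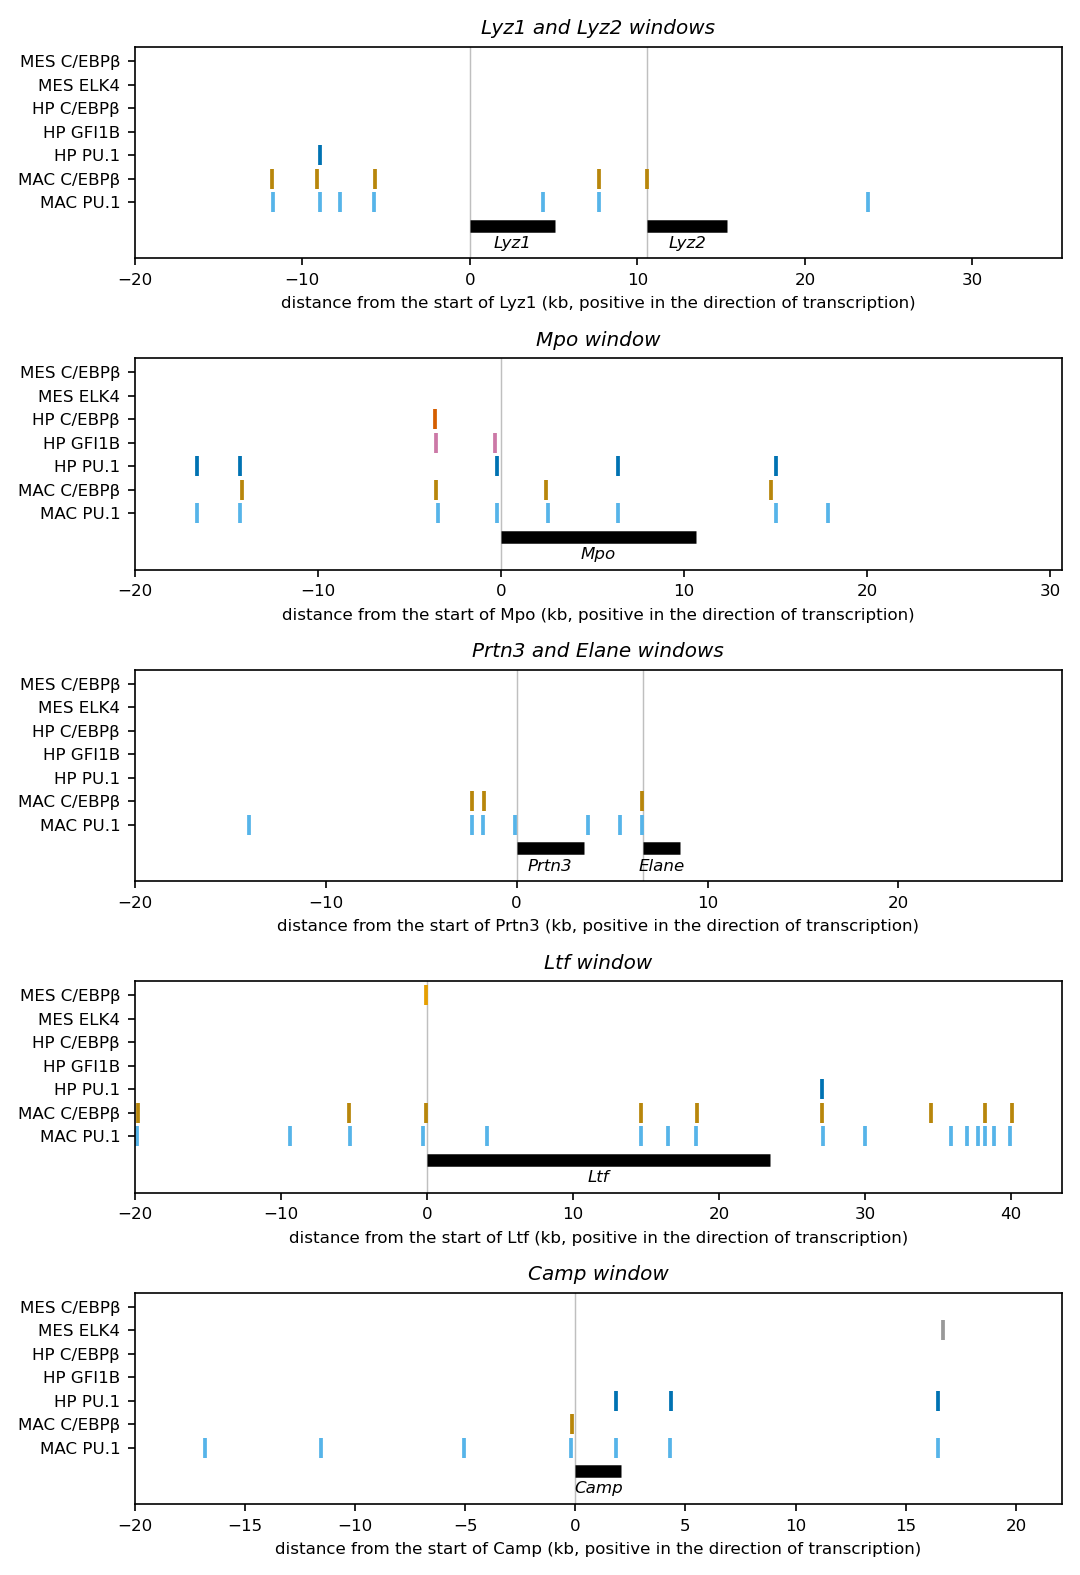
Peak centres (ticks) of the 7 lists with a peak, by distance in kb from the start of Lyz1, Mpo, Prtn3, Ltf or Camp, positive in the direction of transcription; black bars are gene spans, grey lines their starts, and each panel spans the 20 kb windows. The 4 lists near −3521 bp of Mpo, the lone MAC C/EBPβ peak at the Lyz2 start and the MES C/EBPβ peak at the Ltf start stand out, and HP PU.1 ticks have a MAC PU.1 tick beneath them.

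The starts were compared as a group. A MAC PU.1 centre within 500 bp of the start was found for 5 of 9 genes (Mpo, Elane, Prtn3, Ltf and Camp), against 32.1% of coding genes. For MAC C/EBPβ it was 4 of 9 (Lyz2, Elane, Ltf and Camp), against 19.8%. Elane, Ltf and Camp had both, as did 13.3% of coding genes. With only the upper 50% of the lines of each list these counts fell to 3 of 9 for PU.1 (Mpo, Elane and Prtn3, against 16.7%), 1 of 9 for C/EBPβ (Camp, against 10.4%) and 0 of 9 for both (4.27%). With all lines, Lyz1, Ctsg and Chil3 had neither. Of the 82 peaks, 12 were centred within 500 bp of a start of the 9 genes and 38 more than 10 kb away. By annotation of the centre, 42 were intergenic, 27 intronic, 7 in coding exons and 6 in other exon sequence.

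The next question was whether sites bound in HP were kept in MAC. All 10 HP PU.1 peaks at the 9 genes overlapped a MAC PU.1 peak (exact 95% interval of the share 69.2% to 100%, counting error only), and 97.0% of the whole HP list did, so Mpo, Camp, Ltf and the lysozymes followed the rest of the genome here. The centres of the paired peaks lay 2 to 26 bp apart, with a median of 5.5 bp. Conversely, 10 of 45 MAC PU.1 peaks, or 22.2% (11.2% to 37.1%), had been bound in HP, compared with 12.8% of the whole MAC list. By locus these were 5 of 8 at Mpo, 3 of 7 at Camp, 1 of 7 at the lysozymes, 1 of 16 at Ltf and 0 of 7 at Prtn3 and Elane. The single HP C/EBPβ peak (Mpo) and the single MES C/EBPβ peak (Ltf) both overlapped a MAC C/EBPβ peak, as did 91.4% and 66.4% of their lists.

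PU.1 and C/EBPβ in MAC were also compared with each other. Of the 22 MAC C/EBPβ peaks, 20 overlapped a MAC PU.1 peak, which is 90.9% (70.8% to 98.9%). The share was 42.5% in the whole C/EBPβ list and 43.7% among its peaks in the windows of all coding genes. It was 4 of 4 at Mpo, 3 of 3 at Prtn3 and Elane, 1 of 1 at Camp, 8 of 9 at Ltf and 4 of 5 at the lysozymes, and the exceptions were the peaks at the Lyz2 start and at 34491 bp of Ltf, nearest to Ccrl2. Peaks of one locus are not replicates, and the interval covers counting error only. In the other direction, 20 of 45 MAC PU.1 peaks, or 44.4% (29.6% to 60.0%), overlapped C/EBPβ, against 28.5% of the whole list. The remaining 25 had no C/EBPβ peak over them. When only the upper 50% of the lines of each list was kept, 6 of 11 C/EBPβ peaks overlapped PU.1 (54.5%, 23.4% to 83.3%), and this interval covers the 32.5% of the shortened list.

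**Figure D4:**
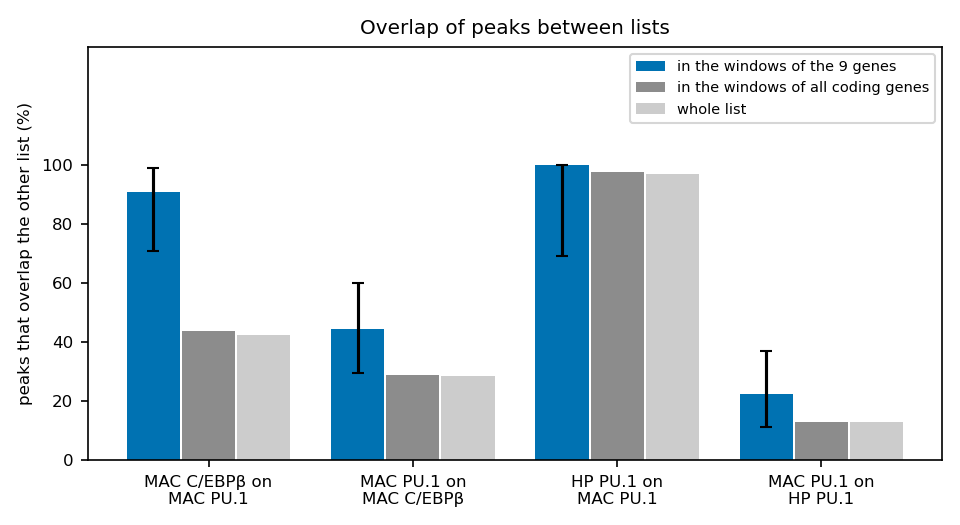
Percentage of the peaks of one list that overlap a peak of another by at least 1 bp, for 4 ordered pairs of lists, in the windows of the 9 genes (blue, with exact 95% intervals for counting error), in the windows of all coding genes (dark grey) and in the whole list (light grey). MAC C/EBPβ on MAC PU.1 stands at 90.9% against 43.7% and 42.5%, while HP PU.1 on MAC PU.1 is near 100% in all 3.

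The consensus letters of each factor were counted under its peaks. GAGGAAGT was present in 11 of 45 MAC PU.1 peaks (24.4%, 12.9% to 39.5%) and in 24.4% of the whole list. In the upper 50% of the lines it was 9 of 20 (45.0%), compared with 28.5% of that part of the list. For PU.1 in HP it was 4 of 10, compared with 42.1%. TTGCNNAA was present in 7 of 22 MAC C/EBPβ peaks (31.8%, 13.9% to 54.9%), against 41.9% of the whole list. The single C/EBPβ peaks of HP (Mpo) and MES (Ltf) each held it, and so did 64.0% and 61.3% of their lists. The ELK4 peak at Camp lacked CCGGAAGT, which 9.35% of its list held.

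The 9 genes were then set beside 19 genes labelled here as other granule genes (among them Lcn2, Ngp, S100a8, S100a9, Mmp8, Mmp9 and Srgn). They were also set beside 21 relatives by protein family (other lysozyme-like, chitinase-like, transferrin, peroxidase, mast cell protease and granzyme genes). The first label is loose, because not all of the 19 encode stored granule proteins. The 19 include Serpinb1a, which encodes an inhibitor of the granule proteases, and Lpo, a peroxidase gene like Mpo. MAC C/EBPβ was found at 19 of 19 other granule genes and 12 of 21 relatives (73.8% of coding genes), and MAC PU.1 at 18 of 19 and 16 of 21 (79.1%). For PU.1 the relatives lay near the background. Serpinb1a was the gene of the 19 without a MAC PU.1 peak. Ctsg and Chil3 were thus the only 2 of these granule genes with no peak in any list, whereas 5 of 21 relatives had none (Spaca3, Chia1, Mcpt8, Gzmb and Gzmc), of which Mcpt8 and Chia1 lie in the windows of Ctsg and Chil3.

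HP PU.1 was found at 10 of 19 other granule genes and 6 of 21 relatives (38.2% of coding genes). At the start, MAC PU.1 was present for 11 of 19 and 3 of 21 (32.1%), and MAC C/EBPβ for 8 of 19 and 2 of 21 (19.8%). The median number of MAC PU.1 peaks was 7 for the 9 genes, 4 for the other granule genes and 1 for the relatives. Some of these genes are neighbours and share peaks (Lpo with Mpo), and these counts were not tested.

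**Figure D5:**
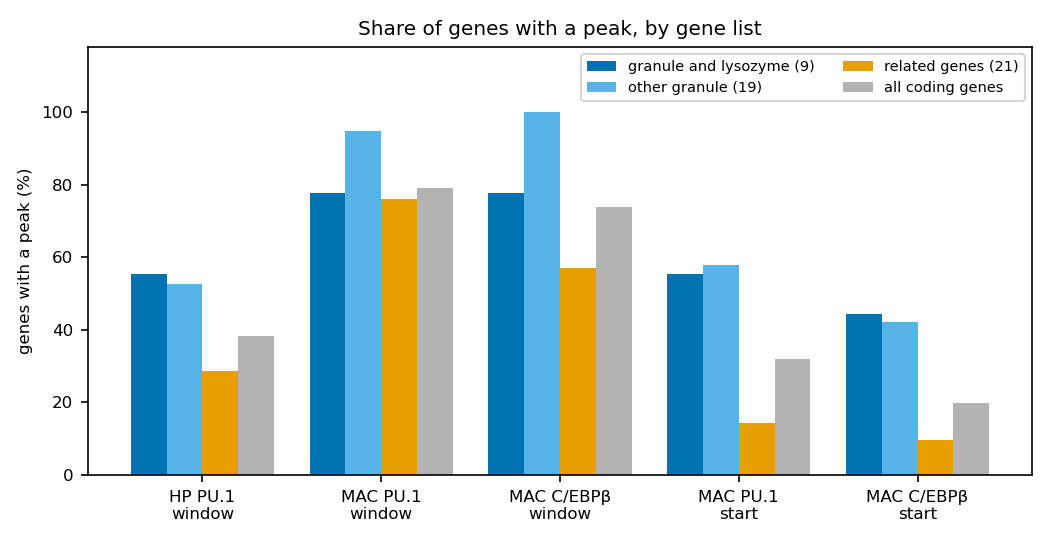
Percentage of genes with a peak in the 20 kb window (HP PU.1, MAC PU.1, MAC C/EBPβ) or with a peak centre within 500 bp of the start (MAC PU.1, MAC C/EBPβ), for the 9 granule and lysozyme genes, 19 other granule genes, 21 related genes and all 21774 coding genes. At the start, PU.1 was present for 5 of 9 and 11 of 19 granule genes, against 32.1% of coding genes and 3 of 21 related genes.

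Gene patterns were compared by the bound or unbound state in all 14 lists. Lyz1 and Lyz2 had the same state in 14 of 14 lists, as had Elane and Prtn3, and Ctsg and Chil3. The lysozyme pair and the Elane and Prtn3 pair share nearly all their peaks because their windows overlap. Ctsg and Chil3 are alike only in having no peak, as had 18.2% of coding genes. The lysozyme state (HP PU.1, MAC PU.1 and MAC C/EBPβ) was common, with 17.0% of coding genes, and included Ngp, Lcn2, Cd177, S100a8, Ms4a3 and Prg2 of the other granule genes. The Elane and Prtn3 state (both MAC factors alone) was that of 22.6% of coding genes, with Olfm4, Mmp8, S100a9, Bpi, Cst7 and Epx. The states of Mpo, Ltf and Camp were rarer, with 164, 125 and 267 coding genes respectively, and of the related lists only Lpo, which shares peaks with Mpo, had the state of Mpo.

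The counts depend on the 20 kb limit. With 10 kb on each side 58 peaks remained, PU.1 in HP was found at 4 genes (30.8% of coding genes) and 6 lists had a peak. Lyz2 was the gene that no longer had an HP PU.1 peak. With 50 kb there were 154 peaks, PU.1 in HP was found at 7 genes (53.0%) and C/EBPβ in HP at 3 (23.4%). Elane and Prtn3 were added in both cases. The farthest peak inside the 20 kb limit was MAC PU.1 at 19642 bp from Ltf. By gene, the nearest peak outside it was MAC C/EBPβ at 20002 bp from Ltf, MAC PU.1 at 20290 bp from Elane and MAC C/EBPβ at 20312 bp from Lyz1.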

How the data were processed

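By the study's own description, the authors trimmed reads of 50 bases, aligned them to mm10 with Bowtie, kept unique positions, removed duplicates and called peaks with MACS against input of the same stage, at a p-value threshold chosen by eye for each list. The peak data were refined with polyPeak, peaks were set to 400 bp around the summit, and technical runs were merged for some lists. Versions of these tools are not given in the sources used here. The deposited files give the chromosome, start and end of each peak, with no score. HE cells had carrier mRNA and histone added.

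Peaks overlapping a window by 1 bp or more were counted for 9 genes and for all 21774 coding genes of the RefSeq GRCm38.p6 annotation (release 108.20200622). Overlap between lists needed 1 bp. Shares carry exact Clopper-Pearson 95% intervals. A gene's start is the 5′ end of its RefSeq span. Sequences were read with pysam 0.24.0 from the C57BL/6J reference, and identities came from Biopython 1.88. Python 3.11.15 with NumPy 2.4.6, pandas 2.3.3 and numba 0.67.0 was used, and the programs were tested on simulated data. All 9 genes are named, and others only from 2 related lists or as neighbours. The 9 genes and these lists were chosen with earlier results of these data known. Depth per list was not analysed.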

Additional observations from a re-analysis of the deposited data

How the results depend on the processing

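No paired analysis was possible because each factor and stage had 1 list and no result came from a test, and no list could be left out within a group. Peaks carry no score, so a stricter calling threshold was not run. As an alternative chosen after the data were seen, only the upper 50% of the lines of each list was kept, since consensus shares were higher there than in the rest in 13 of 14 lists; the sources used here do not say how lines are ordered. It left 40 peaks at the 9 genes, 5 lists with a peak, 0 genes bound by C/EBPβ in HP and no MES C/EBPβ peak at Ltf. The share of coding genes bound by C/EBPβ in HP was not computed for this cut, so that 0 cannot be placed. Of the MAC C/EBPβ peaks left, 54.5% lay on PU.1 (32.5% of the shortened list), and 45.0% of the MAC PU.1 peaks held GAGGAAGT (28.5%). Starts bound in MAC fell to 3 for PU.1, 1 for C/EBPβ and 0 for both. A flank of 50 kb gave 154 peaks and 3 genes bound by C/EBPβ in HP (23.4% of coding genes). Assignment to the nearest coding start gave 3 genes bound by PU.1 in HP (24.1%). Looser letters (GAGGAA and TTNCNNAA) gave consensus shares of 75.6% for PU.1 and 68.2% for C/EBPβ in MAC, against 65.3% and 78.4% of the whole lists. Of 67 values in all, 55 stayed within 1.5 times of the count, or within the 95% interval of the share, that is printed above. The 5 lists with a peak in the upper 50% are among these 55, and the MES call at Ltf is not among the 67. Where no cause follows from the rule itself, the cause was not tested. The cells were of strain 129 and the sequences are those of C57BL/6J.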
